A study of Mus musculus with 2 samples.

Results

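The cytosolic ribosomal protein genes were described here in polyadenylated RNA of the mouse pancreas. A gene was a member if GENCODE M21 lists it as protein-coding and its symbol is Rpsa, Rplp0, Rplp1 or Rplp2, or is Rpl or Rps followed by a number and, for some genes, a paralog suffix. This rule uses names alone and found 84 of the 43346 genes in each table, of which 52 encode proteins of the large subunit and 32 proteins of the small subunit. The rule leaves out some genes whose products are also ribosomal proteins, such as Fau and Rack1, and takes in 7 paralogs with an l, l1 or al suffix. Both libraries came from 1 pancreas sample of 1 female C57BL/6J mouse aged 10 weeks, with no treatment or altered gene in the labels. They are technical replicate 1 and technical replicate 2, and the labels date the second to May 2015. The RNA kit was one made for lipid-rich tissue, and the labels give a size range of 350 to 450 with no unit for both libraries. All values below therefore compare 2 libraries of 1 animal: no biological replicate or second condition was analysed here, and every interval and p-value covers counting error only.

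A ribosome joins a small subunit, which holds the messenger RNA and reads its codons, to a large subunit, which forms peptide bonds. The ribosomal proteins coat and fold the ribosomal RNA, and in mammals most of them are present in a single copy per ribosome. Their messenger RNAs are classic terminal oligopyrimidine messages, which begin with a C and a run of pyrimidines and are translated under the control of the TOR kinase and Larp1. Pancreatic acinar cells, which make digestive enzymes in large amounts, are rich in ribosomes bound to the endoplasmic reticulum.

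The libraries held 9441559 and 9797569 estimated counts, in the order replicate 1, replicate 2, which is kept throughout. They differed in makeup: Gm42418, which overlaps a ribosomal RNA repeat, took 16.9% and 42.8% of counts, and the mitochondrial genome took 17.6% and 3.17%. The tissue label was checked on 8 acinar markers. All 8 were at 1 TPM or more in both libraries, with summed levels of 111365 and 135586 TPM, where TPM is a level already divided by transcript length and scaled to the same sum in each library. Skeletal and heart muscle markers and germ cell markers were at or near 0, with summed levels of at most 0.39 TPM. The 2 smooth muscle markers were present, with summed levels of 115 and 75.2 TPM. In a bulk sample, fewer cells of a type and less RNA per cell cannot be told apart.

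The starts of the genes are shown first because the pyrimidine tract at the start is what the family is known for. RefSeq promoter windows on GRCm38.p6 were matched for 64 of the 84 members. At a listed RefSeq start, 13 of the 64 members (20.3%) began with C followed by 4 or more pyrimidines, against 3.01% of the 27025 genes in the promoter table and 2.99% of the other tested protein-coding genes in it. Of the windows printed, 6 have such a tract and come from both ends of the range of replicate ratios described below, and that of Rpl41, the member with the highest mean level, has none at its listed start. Each window runs 5′ to 3′ on the gene's own strand, with 25 bases before the listed start and 15 from it, and capitals mark the pyrimidines that follow the start without a break.
Rplp2, chr7:141447626-141447665, plus strand: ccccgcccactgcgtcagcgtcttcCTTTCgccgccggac
Rpl15, chr14:18270972-18271011, minus strand: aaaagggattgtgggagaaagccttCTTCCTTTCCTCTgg
Rpl38, chr11:114668555-114668594, plus strand: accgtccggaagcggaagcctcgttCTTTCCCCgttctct
Rps18, chr17:33955651-33955690, minus strand: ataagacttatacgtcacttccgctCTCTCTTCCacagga
Rps6, chr4:86857353-86857392, minus strand: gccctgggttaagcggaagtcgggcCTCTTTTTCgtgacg
Rpl35, chr2:39005117-39005156, minus strand: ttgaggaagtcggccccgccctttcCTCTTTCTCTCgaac
Rpl41, chr10:128549154-128549193, minus strand: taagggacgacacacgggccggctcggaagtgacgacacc

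Annotated ends of GENCODE transcripts gave a lower share: the most abundant protein-coding transcript of 8 of the 84 members (9.52%) began with such a tract, against 2.48% of other tested protein-coding genes. A run of 5 pyrimidines within the first 15 bases was found in 41.7% of members and in 23.7% of those other genes. Annotated ends are not start sites measured in these libraries. In the promoter windows, 250 bases before to 50 after the start, the ETS core CCGGAAG was found on either strand in 25 of 64 members (39.1%), against 9.12% of all windows and 17.9% of those of other tested protein-coding genes. The YY1 motif AAGATGGC and the cyclic AMP response element TGACGTCA were each found in only 5 of 64 members (7.81%). Their shares were 2.88% and 1.88% of all windows and 4.70% and 3.18% of those of other tested genes. The GC box GGGCGG was present in 60.9% of members and 35.9% of all windows, but in 65.5% of those of other tested genes. TATAAA was present in 9.38% of members, 14.2% of all windows and 6.92% of those of other tested genes. The E box CACGTG and CCAAT were found in 7.81% and 31.3% of members against 7.24% and 37.9% of all windows and 10.2% and 38.4% of those of other tested genes. These matches describe the letters only, and the ends of GGGCGG and CCGGAAG can share letters.

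The 84 genes held 2.24% of all TPM in replicate 1 and 2.54% in replicate 2, a mean of 2.39% ± 0.213 (SD, n = 2 libraries). Of the 84, 81 were at 1 TPM or more in both libraries, and 80 were among the 1000 most abundant genes in each. Their share of estimated counts was 1.07% and 1.01%, below their share of TPM because their transcripts are short, with a median length of 679 bases against 2697 for all tested genes. Without the counts of the mitochondrial genome, Gm42418, Gm26917 and Lars2, the share of counts was 1.66% and 2.06%. The members were therefore the lower share of replicate 2 by raw counts and the higher share by TPM and by counts without those RNAs.

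Levels spanned a wide range on the TPM scale. Rpl41, which encodes the smallest ribosomal protein, stood at 1033 and 1437 TPM, and Rps24, a small subunit protein mutated in some families with Diamond-Blackfan anaemia, at 1548 and 793 TPM. Rps24 was the most abundant member in replicate 1 and Rpl41 in replicate 2. The stalk gene Rplp1 stood at 274 and 1119 TPM, so its mean of 696 TPM carried an SD of 598 (n = 2 libraries) and its place moved from 27 among the members to 2. Rpl13a, which encodes a protein of the large subunit also known for a role in inflammatory translational control, stood at 624 and 691 TPM. Rps12 stood at 610 and 655 TPM. Both were close to the same level in each library by TPM. In the scaled comparison of counts described below, their log2 ratios were 0.66 and 0.41. Rpl32 (574 and 552 TPM), Rps28 (552 and 528 TPM) and Rps15 (464 and 557 TPM) were similarly close in TPM. Their log2 ratios of counts were 0.25, 0.26 and 0.58. Rpl26 (693 and 455 TPM) and Rpl17 (650 and 401 TPM), neighbours at the mouth of the exit tunnel, were higher in replicate 1. The order of these 10 most abundant genes by mean TPM was Rpl41, Rps24, Rplp1, Rpl13a, Rps12, Rpl26, Rpl32, Rps28, Rpl17 and Rps15. The range between libraries of Rplp1, Rpl26 and Rpl17 took in the mean of most of the genes from Rpl13a down, so their places in this order did not hold beyond that spread.

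**Figure D1:**
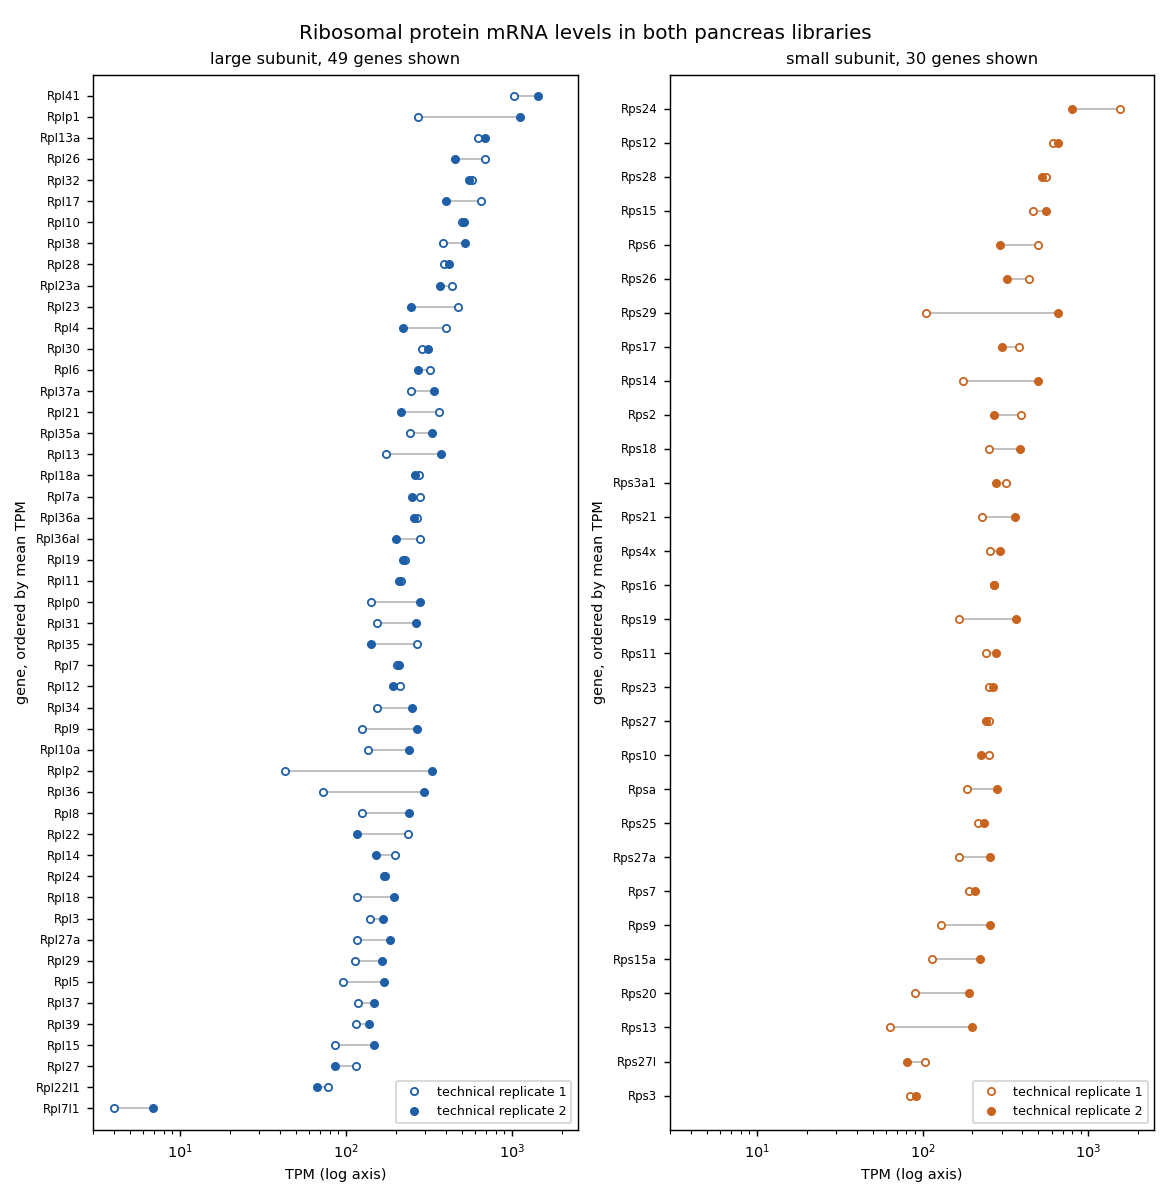
TPM of 79 ribosomal protein genes above 0 in both libraries, on a log axis, for the large (left) and small (right) subunit, ordered by mean TPM; open points are technical replicate 1, filled points technical replicate 2, and grey lines join them. Most genes lie between 100 and 1000 TPM; Rplp2, Rps29 and Rplp1 have the longest joining lines and Rpl7l1 stands apart at 3.98 and 6.87 TPM.

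At the other end, the paralogs Rpl10l and Rpl39l had 0 counts in both libraries, which allows up to 3 counts, or 0.318 and 0.306 CPM (counts scaled by library size). Both are known from the testis, where they replace X-linked partners. Rpl3l, the paralog of striated muscle, had 0 counts and 1 count. Rpl7l1, which encodes a nucleolar protein of large subunit assembly, stood at 3.98 and 6.87 TPM. The least abundant genes without a paralog suffix were Rps3 (83.6 and 91.7 TPM), Rpl27 (115 and 86.0 TPM), Rpl15 (86.2 and 147 TPM), Rpl39 (115 and 139 TPM) and Rps13 (63.5 and 199 TPM). Rps3, whose protein lines the entry of the messenger RNA channel, was nearly level between libraries in TPM. Rps13, a protein at the bridge between subunits, was not.

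The small subunit genes had the higher median level. The median was 208 and 240 TPM for the 52 large subunit genes and 246 and 278 TPM for the 32 small subunit genes, a ratio of large to small of 0.846 and 0.864 (mean 0.855 ± 0.0128, SD, n = 2 libraries). Both libraries gave a ratio below 1. Without the 7 paralogs, 6 of which belong to the large subunit, the ratio was 0.886 and 0.898, and with the counts of near-identical gene copies added to each gene it was 1.02 and 0.879, so that the order of the subunits was not the same in both libraries. The spread within each subunit was wider than this difference: the interquartile range ran from 116 to 295 TPM for the large and from 161 to 335 TPM for the small subunit in replicate 1. In replicate 2 it ran from 167 to 329 and from 240 to 372 TPM. The spread over genes was narrower in replicate 2: the SD of log2 TPM over genes was 1.15 and 0.98 for the 81 genes above 0 in both libraries, and 0.95 and 0.73 without the paralogs. Across the 81 genes, log2 TPM in one library followed that in the other with Pearson r = 0.75 and Spearman rho = 0.62, a description across genes that share both libraries.

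Replicate 2 was then compared with replicate 1 gene by gene, with an exact binomial test of rounded counts, scaled by TMM, which sets most genes to no change. Genes with a mean of 10 counts or more were tested, with Benjamini-Hochberg adjustment over all 12452, and calls needed both a change of 2-fold or more and an adjusted p under 0.05. Of the 81 members tested, 19 were called higher in replicate 2 and 0 lower. Over all tested genes 12.3% were called, 8.31% higher and 4.0% lower. The test compares these libraries and not conditions. With an assumed dispersion of 0.01 in edgeR, 19 members were again called higher and 0 lower, beside 6.96% and 2.89% of all tested genes. Leaving out the fold limit and the adjustment, the exact 95% interval of the log2 ratio lay above 0 for 63 members, below 0 for 11 and across 0 for 7. No such count over all tested genes is given here, so these counts describe the members' own intervals and do not set them apart from other genes. The median log2 ratio of the members was 0.52, with 66 of 81 above 0, while that of all tested genes was -0.01.

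The scaling set this direction. By library totals the members' median log2 ratio was -0.016, 6 were called higher (Rpl36, Rplp1, Rplp2, Rps13, Rps14 and Rps29) and 5 lower (Rpl4, Rpl22, Rpl35, Rps6 and Rps24), since the scalings differ by 0.54 on the log2 scale, and all tested genes then had a median of -0.55 with 2.75% called higher and 20.9% lower. With totals that leave out the mitochondrial genome, Gm42418, Gm26917 and Lars2, 12 members were called higher and 0 lower, beside 6.32% and 6.33% of all tested genes. With an assumed dispersion of 0.1 in edgeR, Rplp2 and Rps29 alone of the members were called, beside 45 of all tested genes. Some cell type markers also differed between the libraries. The part of Gm42418, of the mitochondrial RNAs and of these markers was not tested. Of 5 erythroid markers 4 were called higher in replicate 2, their summed level was 1455 and 3287 TPM, and none was at 0. Hbb-bs and Hba-a2, both haemoglobin chains, led with 578 and 1291 TPM and with 436 and 934 TPM. Alas2, at 8.34 and 5.57 TPM, was not called (log2 ratio -0.003). Of acinar markers, Cela2a (16702 and 46734 TPM) was called higher and Rnase1 (20289 and 8203 TPM) lower. Of islet markers, Ppy (25.7 and 86.6 TPM) was called higher and Gcg (4235 and 1566 TPM) lower. Of immune markers, Cd79a was called lower.

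**Figure D2:**
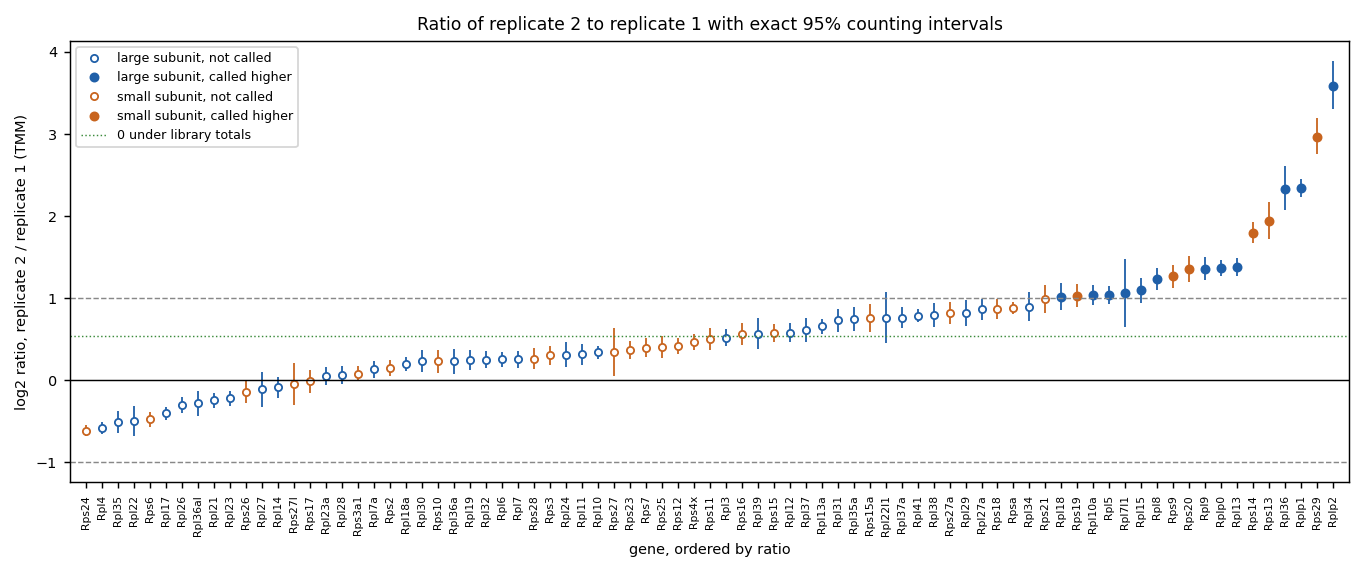
Log2 ratio of replicate 2 to replicate 1 (TMM scaling) of 79 of the 81 tested ribosomal protein genes in rising order, with exact 95% counting intervals as bars; filled points were called higher, colours give the subunit, dashed lines mark a 2-fold change and the dotted line is where 0 would lie under library totals. The ratios run from -0.61 for Rps24 to 3.59 for Rplp2, and 6 genes lie well above the rest.

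The stalk is the flexible arm of the large subunit that recruits elongation factors, built from Rplp0 as its base and pairs of Rplp1 and Rplp2. Of its 4 genes 3 were called higher, beside 8.31% of all tested genes. Rplp2 (chr7:141447370-141451585, plus strand) had 111 counts in replicate 1 and 960 in replicate 2, or 43.1 and 329 TPM, a log2 ratio of 3.59 (95% interval 3.31 to 3.89, exact binomial adjusted p = 2.24e-235). Rplp1 rose from 795 to 2883 counts, a log2 ratio of 2.34 (2.23 to 2.46). Rplp0 rose from 1369 to 2525 counts, or from 141 to 279 TPM, a log2 ratio of 1.37 (1.27 to 1.46). All 3 were higher in replicate 2 by counts, TPM and either scaling, though Rplp0 was 0.83 by library totals and then not called. Rpl12, at the foot of the stalk, had 1168 and 1251 counts, 213 and 193 TPM, and a log2 ratio of 0.58, and was not called. Stalk genes paired in the protein complex did not stand at equal levels: Rplp1 exceeded Rplp2 in TPM in both libraries.

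Rpl5 and Rpl11 bind the smallest ribosomal RNA and, outside the ribosome, the p53 regulator Mdm2. Rpl5 had 1083 and 1594 counts, 95.9 and 171 TPM, and was called higher with a log2 ratio of 1.04 (0.93 to 1.15). Rpl11 had 1103 and 982 counts, 215 and 208 TPM and a log2 ratio of 0.32, and was not called. In TPM, Rpl11 was the higher of the partners in both libraries, and they lay closer together in replicate 2. These levels leave out reads given to copies of Rpl5, so the order holds only for reads assigned to the genes themselves. The call of Rpl5 did not hold once its copies were added, as given below.

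Around the mouth of the exit tunnel, where nascent chains leave, lie Rpl17, Rpl19, Rpl22, Rpl23a, Rpl26, Rpl31, Rpl35 and Rpl39. None of these 8 was called, and 4 ratios lay above 0 and 4 below. With 12.3% of all tested genes called, 0 of 8 does not set this group apart. Rpl35, which contacts the signal recognition particle, had 1346 and 677 counts, 268 and 143 TPM and a log2 ratio of -0.51 (-0.64 to -0.37). Rpl22 had 741 and 375 counts, 236 and 117 TPM and a log2 ratio of -0.50 (-0.68 to -0.32), and Rpl17 had 3475 and 1880 counts and a log2 ratio of -0.40 (-0.49 to -0.32). All 3 were higher in replicate 1 and their intervals lay below 0, at less than 2-fold by TMM. By library totals Rpl35 and Rpl22 were called lower, and Rpl22 was also lower by a 2-fold ratio of TPM. Rpl31 was at the other end of the group with 796 and 944 counts and a log2 ratio of 0.73. The median log2 ratio of the 8 was -0.13 and that of the 4 stalk genes 1.85. Both groupings were drawn up with results of these data known, and their difference is a description.

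Other large subunit genes called higher included Rpl36, with 154 and 557 counts, 73.0 and 295 TPM and a log2 ratio of 2.33 (2.08 to 2.60). Rpl13 rose from 951 to 1771 counts with a log2 ratio of 1.38, Rpl9 from 643 to 1180 with 1.36, and Rpl8, which lies near the peptidyl transferase centre, from 763 to 1286 with 1.24. Rpl15 (1.09), Rpl7l1 (1.06), Rpl10a (1.04) and Rpl18 (1.02) lay close to the threshold of 1. These 4 and Rpl5 make 5 of the 12 large subunit genes called whose log2 ratio was under 1.1. Rpl4, a protein with a loop that lines the exit tunnel, had the most counts of any large subunit gene in replicate 1. It had 4425 and 2116 counts, 402 and 221 TPM and a log2 ratio of -0.58 (-0.66 to -0.51), the lowest of the large subunit. Rpl41 was not called, with 2561 and 3165 counts and a log2 ratio of 0.79.

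In the small subunit, Rps29, a zinc-binding protein of the head, had 208 and 1168 counts, 105 and 654 TPM and a log2 ratio of 2.97 (2.76 to 3.19, exact binomial adjusted p = 3.82e-238). It was 71 among the members in replicate 1 by TPM and 6 in replicate 2. Rps13 rose from 233 to 642 counts with a log2 ratio of 1.94 (1.73 to 2.17). Rps14, a protein of the platform where the messenger RNA leaves, and a gene lost in the human 5q- syndrome, rose from 718 to 1785 counts, or 176 to 494 TPM, with a log2 ratio of 1.80 (1.67 to 1.92). Its neighbours on the platform did not pass: Rpsa, the laminin receptor homolog, had a log2 ratio of 0.88, Rps28 of 0.26 and Rps26 of -0.14. Rps20 rose from 509 to 933 counts with a log2 ratio of 1.36 and Rps9, which helps hold decoding accurate, from 686 to 1181 with 1.27. Rps19 (1.03), the gene most often mutated in Diamond-Blackfan anaemia, lay just above the threshold. Rps21, at 461 and 656 counts and a log2 ratio of 0.99, lay just below it.

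Among the decoding and entry proteins Rps2, Rps3, Rps15 and Rps23, none was called, beside 12.3% of all tested genes. All their ratios lay between 0.15 and 0.58. Rps6, the target of S6 kinases, had 3107 and 1597 counts, 498 and 292 TPM and a log2 ratio of -0.48 (-0.57 to -0.39). Rps24 had 5054 and 2366 counts and the lowest ratio of all members, -0.61 (-0.68 to -0.54). By TMM both were higher in replicate 1 by less than 2-fold, and by library totals both were called lower. The 62 members tested and not called had log2 ratios from -0.61 to 0.99. Of the 49 large subunit genes tested 12 were called, and of the 32 small subunit genes 7, with median log2 ratios of 0.57 and 0.49. Start tracts were found across this range: of the 13 genes with a tract at the RefSeq start 2 were called (Rplp2 and Rpl15) and their median log2 ratio was 0.75, and of 48 tested members with a window and no such tract 10 were called, with a median of 0.44.

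The paralogs were compared with their partners on the TPM scale. Rpl22l1, the paralog that Rpl22 is known to repress, stood at 77.6 and 67.2 TPM, and Rpl22 exceeded it 3.04-fold in replicate 1 and 1.75-fold in replicate 2. Rps27l, known as a p53 target, stood at 103 and 80.2 TPM against 250 and 243 TPM for Rps27, a ratio of 2.43 and 3.03. By counts this order turned, with 303 and 210 for Rps27l against 208 and 189 for Rps27, which has the shorter transcript. The order in TPM thus rests on the division by transcript length. Reads given to copies of Rps27, described below, are left out of its TPM and counts. Rpl36a and Rpl36al were near equal, at 269 and 257 TPM against 280 and 200 TPM, a ratio of 0.962 and 1.29 that was below 1 in one library and above it in the other. Rpl7 exceeded Rpl7l1 50.8-fold and 30.3-fold. Against Rpl3 at 140 and 167 TPM, Rpl10 at 501 and 516 TPM and Rpl39 at 115 and 139 TPM, the paralogs Rpl3l, Rpl10l and Rpl39l were at or near 0.

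Ribosomal protein genes have many processed copies elsewhere in the mouse genome, and reads that match both can be given to either. In GENCODE M21, 455 other genes carried a transcript matching a member at 95% identity or more over 90% or more of the copy, for 77 of the 84 members. These copies held 6948 counts in replicate 1 and 2877 in replicate 2, or 6.42% and 2.84% of the counts of members and copies together. Replicate 2 had the lower share. Of 44 copies with a mean of 10 counts or more, 35 were lower in replicate 2 by their log2 ratio. The largest was Gm15500, a transcribed pseudogene on chromosome 7 that matches Rpl5 at 100% identity, with 1973 and 607 counts. Copies thus took 64.6% and 27.6% of the counts of Rpl5 and its copies, and with copies added the log2 ratio of Rpl5 went from 1.04 to 0.01. Gm7536, a copy of Rpl27a, had 781 and 262 counts, Rpl10a-ps1 had 512 and 187, and Rps27rt had 278 and 110, more in replicate 1 than Rps27 itself with 208 and 189. The log2 ratio of Rpl10a went from 1.04 to 0.56 and was then not called. In all, 11 members had 10% or more of such counts at copies in replicate 1 and 8 in replicate 2. With all copies added, 17 of the 19 calls remained and the members' median log2 ratio was 0.40. Over all genes tested with copies added, 8.28% were called higher and 3.89% lower. Rplp2, Rplp1, Rps29 and Rps14 had under 1% of counts at copies in both libraries.

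**Figure D3:**
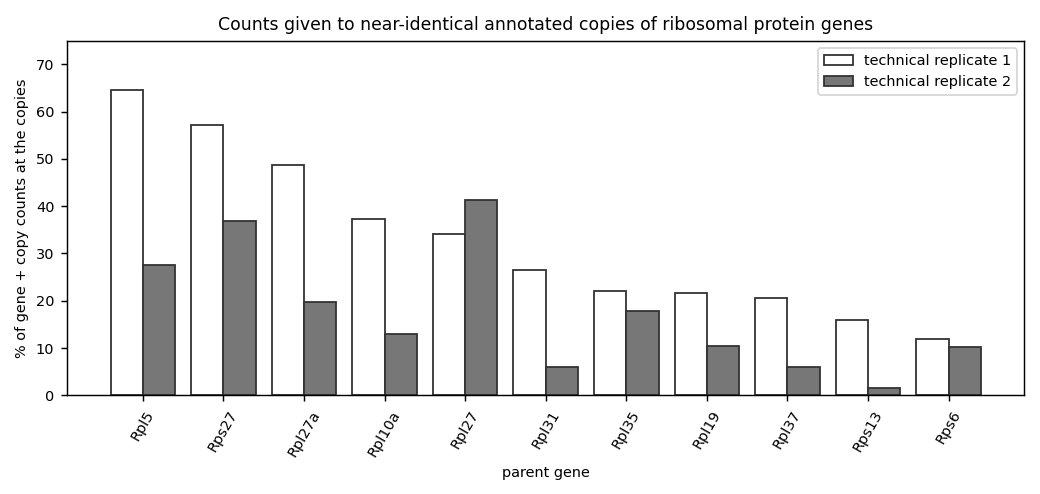
Share of the counts of a gene and its near-identical annotated copies that was given to the copies, for the members with 10% or more in either library; open bars are technical replicate 1 and grey bars technical replicate 2. Rpl5 has the highest share in replicate 1, at 64.6%, and the share is lower in replicate 2 for all genes shown but Rpl27.

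The deposited posterior SD of the count, which measures how uncertain the assignment of reads was, was small for most members. It was under 1% of the count in both libraries for 66 of the 81 tested members, with medians of 0.202% and 0.188%. The largest were those of Rpl27, at 5.29% and 6.01% of its 452 and 300 counts, Rps13, at 4.88% and 0.793%, and Rpl10a, at 4.20% and 2.26%. Rpl31 (3.61% and 1.51%), Rpl35 (1.94% and 3.14%) and Rpl5 (3.08% and 2.38%) followed. Of these 6 genes, all had 10% or more of counts at copies in replicate 1. For Rplp2 the SD was 1.81% and 0.0687%, far below the difference between its counts.

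Isoform shares within the genes differed between the libraries. The main isoform of a gene was that with the highest mean TPM over both libraries, and its share of the gene's TPM was compared for the 60 members with 2 or more annotated transcripts and a mean of 100 counts or more. The median share was 89.9% in replicate 1 and 83.9% in replicate 2. The share differed by 10 percentage points or more for 29 of the 60 (48.3%), against 59.3% of 3686 genes of all kinds under the same limits. The median absolute difference was 9.17 points for members and 13.2 for all genes. At a mean of 1000 counts or more this order turned: 55.2% of members and 46.5% of all genes differed by that much, with medians of 11.6 and 8.65 points. These shares have no test, since each rests on 1 estimate per library. For Rpl23, whose protein is one of those that bind Mdm2, the noncoding Rpl23-204 held 78.2% in replicate 1 and 5.54% in replicate 2, and the coding Rpl23-201 held 20.6% and 90.2%. For Rps16 the retained-intron transcript Rps16-203 held 85.5% and 32.0%, and the coding Rps16-201 13.1% and 67.2%. For Rps2 the retained-intron Rps2-203 held 70.1% and 30.6%. In these 3 genes the noncoding form was the larger in replicate 1 and the coding form in replicate 2.

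For Rpl12 the form annotated for nonsense-mediated decay, Rpl12-201, held 90.3% and 45.1%, and the coding Rpl12-203 7.38% and 50.3%. Rplp2 was spread over 3 coding forms in replicate 2: Rplp2-203 held 93.1% and 42.8%, Rplp2-202 0% and 36.5%, and Rplp2-201 5.71% and 20.1%. For Rpl15, the coding Rpl15-203 held 86.2% and 53.0%, and Rpl15-204 0% and 25.3%. Over all members, and leaving out transcripts without a match in the reference annotation, transcripts of protein-coding type held 90.7% and 93.3% of TPM, retained-intron forms 4.96% and 4.45%, processed transcripts 3.35% and 1.78%, and decay forms 1.02% and 0.456%. Protein-coding forms thus held most of the family's TPM in both libraries, whatever the forms of single genes.

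**Figure D4:**
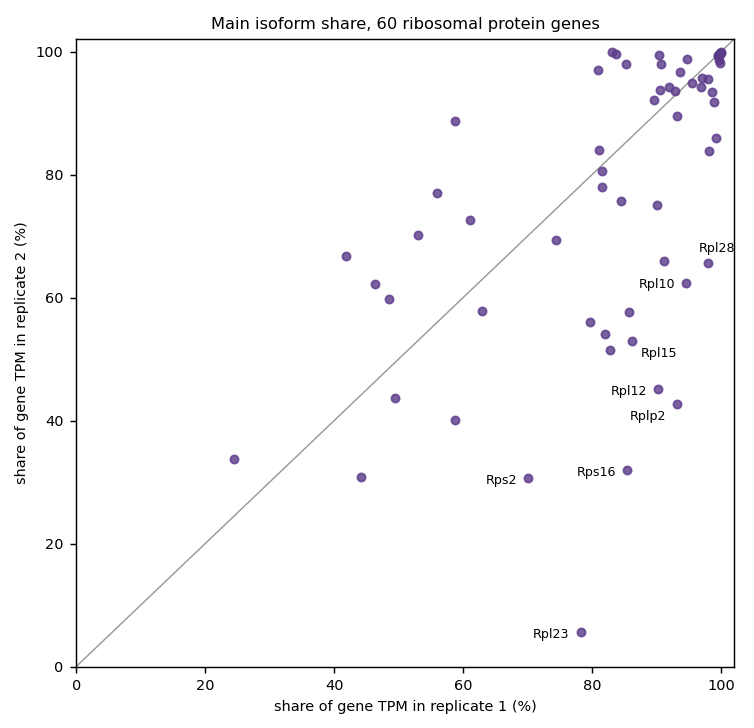
Share of gene TPM held by the main isoform in replicate 1 (horizontal, %) and replicate 2 (vertical, %) for the 60 ribosomal protein genes with 2 or more transcripts and a mean of 100 counts or more; the line marks equal shares and the genes with the 8 largest differences are named. Rpl23 lies lowest, at 78.2% and 5.54%, and many genes lie at shares over 90% in both.

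The replicate ratio also moved with GC content, for members and for other genes. Among other tested nuclear protein-coding genes the median log2 ratio was -0.33 at a GC content under 45%, -0.14 from 45 to 50%, 0.08 from 50 to 55%, 0.42 from 55 to 60% and 1.02 above 60%. The members' medians in those bins were 0.25, 0.38, 0.41, 1.03 and 1.28, for 5, 22, 39, 13 and 2 genes. All bins but those from 45 to 50% and from 50 to 55% hold fewer than 20 members. Members called higher numbered 1 of 5 under 45% GC, 2 of 22 from 45 to 50%, 7 of 39 from 50 to 55%, 8 of 13 from 55 to 60% and 1 of 2 above 60%. Of the other tested nuclear protein-coding genes in those bins, 1.05%, 2.26%, 6.43%, 18.4% and 48.6% were called higher. Across the 81 members the ratio and GC content had r = 0.35 and rho = 0.38, a description over genes that share both libraries. Once a smooth trend of all tested nuclear genes on GC content and transcript length was removed, 12 members were called higher, 11 of them among the 19. The members' median log2 ratio was 0.43. Over all genes tested with the trend removed, 4.97% were called higher and 3.29% lower. Rplp2, Rps29, Rplp1, Rps13, Rps14 and Rpl36 were then at 3.26, 2.82, 1.80, 1.83, 1.53 and 1.43, while Rps19, Rpl18 and Rpl8 went to 0.47, 0.36 and 0.62 and were not called.

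**Figure D5:**
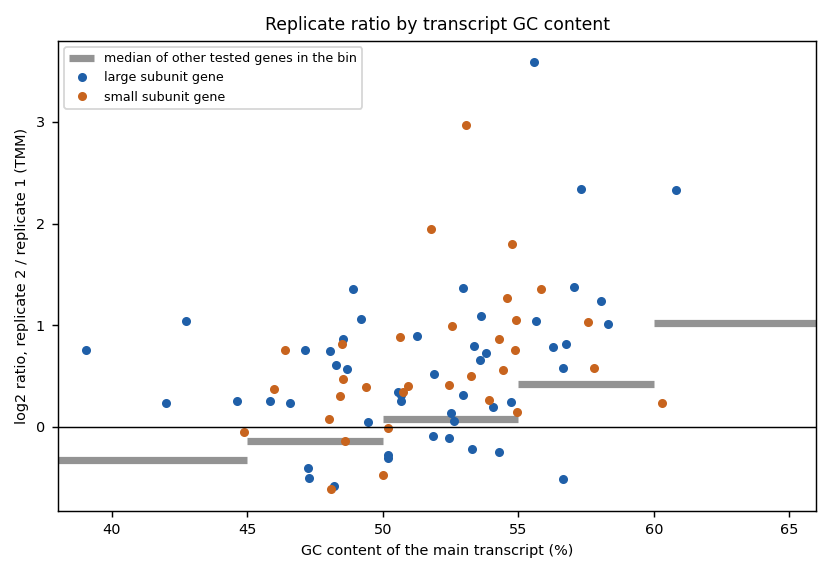
Log2 ratio of replicate 2 to replicate 1 (TMM scaling) against the GC content of the main transcript for the 81 tested ribosomal protein genes, coloured by subunit. Grey bars give the median of the other tested nuclear protein-coding genes in each GC bin. The grey medians rise from -0.33 to 1.02, and Rplp2 and Rps29, at 3.59 and 2.97, lie far above them.

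The family also shared features of gene structure. Members lie on 19 chromosomes, 4 of them on X, and 30 of the 84 (35.7%) host a small nucleolar RNA gene within their bounds on the same strand, against 1.63% of other tested protein-coding genes. These hosts held 58 small nucleolar RNAs, the guides for ribosomal RNA modification. Rpl4 held 5, the most of any member, and Rpl13a held 4. They carry no polyA tail as a rule, and no level is given for them here.

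Genes that work with the ribosomal proteins were taken from lists by function. Over all tested genes 8.31% were called higher and 4.0% lower, to be set beside each count of calls given for these lists. The ribosomal protein genes Fau (251 and 262 TPM) and Rack1 (193 and 281 TPM), which lie outside the naming rule, had log2 ratios of 0.37 and 0.89, and neither was called. Of 18 other messages with a terminal oligopyrimidine tract 0 were called, and their median log2 ratio was -0.11. The most abundant were Tpt1 (1671 and 1673 TPM), Eef1a1 (1193 and 1306 TPM), Eef1b2 (179 and 166 TPM) and Eef2 (86.6 and 142 TPM). Tpt1 and Eef1a1 thus stood at the level of the most abundant ribosomal protein genes, and Eef1b2 and Eef2 below the members' median of 222 and 256 TPM. Of 12 genes for TOR and its control of such messages 0 were called, with Eif4ebp1, the TOR-controlled repressor of initiation, at 19.2 and 24.4 TPM, Larp1, which binds the tract, at 17.5 and 13.4 TPM, and the S6 kinase genes Rps6kb2 and Rps6kb1 at 16.9 and 14.2 TPM and at 13.9 and 8.67 TPM.

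Assembly genes were low beside their products. Of 11 tested dedicated chaperones and importers 2 were called higher and 1 lower. Those higher were Pdcd2l (10 and 19 counts, log2 ratio 1.38) and Grwd1 (16 and 28 counts, 1.27), a chaperone of Rpl3. The gene called lower was Ltv1 (94 and 33 counts, -1.01). Bccip, a chaperone of Rpl23, led that list at 16.3 and 18.7 TPM, followed by Pdcd2 (9.94 and 4.32 TPM) and the importins Ipo7 (6.39 and 4.93 TPM) and Ipo5 (6.46 and 4.85 TPM). Of 19 large subunit assembly genes 1 was called, Rpf2, which helps load Rpl5 and Rpl11, at 9.35 and 1.76 TPM and a log2 ratio of -1.18. Gnl2 (29.7 and 10.6 TPM), Rrp1 (19.4 and 12.7 TPM), Sbds (17.0 and 10.3 TPM) and Eif6 (14.3 and 6.80 TPM) were the most abundant. Of 14 small subunit assembly genes 1 was called, Imp3 (8.72 and 18.9 TPM, log2 ratio 1.40), and Emg1 (12.1 and 17.8 TPM), Mphosph10 (9.02 and 4.36 TPM) and Nob1 (6.57 and 5.67 TPM) stood beside it.

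Of 10 nucleolar and guide RNA particle genes, Nhp2 was called higher (1.07) and Gar1 lower (-1.30), both subunits of the H/ACA particle. The most abundant were Npm1 (70.4 and 36.1 TPM), Nop56 (32.9 and 27.9 TPM), Ncl (39.1 and 20.2 TPM) and Nop58 (21.6 and 11.8 TPM). Of 12 RNA polymerase I genes Polr1c and Taf1c were called higher, both at a log2 ratio of 1.57 from 20 and 43 counts. By level, Polr1d (15.5 and 19.5 TPM), Ubtf (10.9 and 10.4 TPM), Taf1d (10.1 and 3.81 TPM) and Polr1e (7.78 and 3.65 TPM) led. Mitochondrial ribosomal protein genes, which serve the separate ribosome of that organelle, summed to 730 and 729 TPM over 77 genes against 22368 and 25379 TPM for the 84 cytosolic ones. Of the 77, 10 were called higher and 1, Mrpl42, lower (40.3 and 15.5 TPM, log2 ratio -1.07), beside 8.31% and 4.0% of all tested genes. Their median log2 ratio was 0.27, with 57 above 0. The highest ratios were those of Mrps24 (2.09), Mrpl2 (1.88), Mrpl52 (1.71) and Mrpl53 (1.65), and the other 6 called higher, Mrps16, Mrpl28, Mrps12, Mrps34, Mrpl11 and Mrpl44, had ratios from 1.23 to 1.46. By level Mrps21 (41.5 and 36.0 TPM), Mrpl24 (42.6 and 32.3 TPM) and Mrpl30 (32.1 and 30.6 TPM) led this list with Mrpl42.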

How the data were processed

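Gene and transcript tables of each library were used as deposited, on mm10 with GENCODE M4 per the deposited text (aligner and quantifier: not given in the sources used here). The authors deposited expected counts (estimated reads, not whole numbers), posterior mean counts, a posterior SD of the count (used as a score of assignment), TPM, FPKM, posterior mean TPM (a signal) and isoform percent of gene TPM. GENCODE M21 (GRCm38) supplied symbols, types and positions and matched 42462 of 43346 gene identifiers; promoters came from RefSeq on GRCm38.p6. M4 transcripts without a match in M21 carry no name or type here.

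Expected counts were rounded to whole numbers, TMM factors were computed over all genes (edgeR 4.0.16, R 4.3.3), and genes with a mean of 10 counts or more were tested by a two-sided exact binomial test given the sum of both counts (scipy 1.17.1), with 0.5 added to both counts for the log2 ratio. Intervals are exact (Clopper-Pearson) at 95%. The test was tested on simulated counts with known changes and counting error only. Differences of GC content or of read assignment were not simulated, so this does not check the calls made here. With 1 library a side no dispersion can be estimated, so edgeR's exact test was run with dispersions of 0.01 and 0.1. Copies were found with BLAST+ 2.17.0, and the GC and length trend with mgcv 1.9.3. Whether counting used strand is not stated, so reads of overlapping genes cannot be told apart.

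The text names the 10 most and 10 least abundant members, the 12 highest and 6 lowest ratios, every called member, paralogs with partners, the 6 largest relative posterior SDs, the 6 largest isoform differences and, of each list, the 4 most abundant and all called genes. Members and lists were chosen with earlier results of these data known. A few genes that the rule names are not reported here. Other genes named are examples chosen after their values were seen. Alternatives tried were other scalings (library totals, DESeq2 1.42.0 size factors, upper quartile), filters, posterior means, FPKM, copies added and the trend removed. TPM without the mitochondrial genome, its nuclear copies, Gm42418, Gm26917 and Lars2 was also tried.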

Additional observations from a re-analysis of the deposited data

How the results depend on the processing

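With DESeq2 size factors, posterior mean counts, no filter on counts, a minimum mean of 50 counts or an assumed dispersion of 0.01, 19 members were called higher and 0 lower, the same 19 genes. In that order of settings, 8.4%, 8.25%, 6.59%, 5.73% and 6.96% of all genes tested were called higher. Those called lower were 3.98%, 4.0%, 2.87%, 2.67% and 2.89%. Library totals gave 6 higher and 5 lower with a median log2 ratio of -0.016, which turned the direction of the median. Upper quartile factors gave a median of 0.49, no filter 0.54, totals without the mitochondrial genome, Gm42418, Gm26917 and Lars2 12 higher and a median of 0.39, copies added a median of 0.40, and the trend removed 12 higher and a median of 0.43. An assumed dispersion of 0.1 left 2 higher. Over all tested genes, 0.249% were called higher at that dispersion, 8.28% with copies added and 4.97% with the trend removed. A 2-fold ratio of TPM, which has no test, gave 10 higher and 1 lower (Rpl22), with a median log2 ratio of 0.13, against 5.99% higher, 14.4% lower and a median of -0.30 over all tested genes. Over all tested genes, calls higher were 67.5% of calls by TMM and 11.6% by library totals, and calls numbered 1533 and 2945; an assumed dispersion of 0.1 gave 45 and the trend removed 1026.

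The share of all TPM was 4.36% without the mitochondrial genome, its nuclear copies, Gm42418, Gm26917 and Lars2, and ran from 2.24% to 2.54% when either library was left out. The ratio of large to small subunit medians was 0.883 over members at 1 TPM or more, 0.949 with copies added and 0.892 without the 7 paralogs, an alternative added after seeing the data. It ran from 0.846 to 0.864 when either library was left out. The median isoform difference was 11.6 points at a mean of 1000 counts or more. No paired analysis was possible because both libraries belong to 1 group, and no call can be made without either of them. With 1 animal and 1 library a side, the spread between animals or preparations cannot be estimated, and a gene with few counts, such as Rpl7l1 with 85 and 127, has a wide interval (0.65 to 1.48).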
